A study of Mus musculus with 9 samples.

Results

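The E protein genes Tcf3, Tcf4 and Tcf12 and the inhibitor genes Id1, Id2 and Id3 were followed through 3 mature B cell subsets of the mouse spleen. They were taken by symbol and make up 6 of the 24459 gene rows of the expression table. Each of the 6 genes was on 1 row, and 5 of them passed the minimum mean of 0.5 FPKM (fragments per kilobase of transcript, scaled to the mapped fragments of the library) that was set for testing. Id1 was below that minimum. In all, 11597 rows passed it.

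RNA was sequenced from 9 libraries, with 3 replicates of each subset, and every sort pooled the splenocytes of 5 naive mice of 8 to 10 weeks of age. Follicular (FO) B cells were B220+IgMintCD21intCD23+CD93- cells with high surface IgD, BDL cells came from the same gate but had low or no surface IgD, and marginal zone (MZ) B cells were B220+IgMhiCD21hiCD23-CD93-. All 3 subsets were freshly isolated from untreated, unmanipulated animals, which the labels give as C57/BL6 and the study's methods as B10.PL, and which of these applies was not tested. The sample titles carry 3 numbers in the form of a date, each shared by the 3 subsets, and the replicates were numbered by them. Which step was done on that date, and whether the subsets of a date came from the same pooled mice, is not stated. The titles and source names of the 3 libraries of replicate 3 begin with the word Splenic, unlike those of the other 6. The p-values measure the spread between such libraries of pooled mice and not between single mice.

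The FPKM of all rows summed to between 446033 and 517208 per library, and between 7634 and 8599 rows were listed at 0. Relative depth, read from the steps between low values, lay between 0.9 and 1.224 times that of FO replicate 1. The sort gates could be seen in the transcripts. Fcer2a, which encodes CD23, was at 496 ± 45.1 FPKM in FO, 427 ± 44.1 in BDL and 29.6 ± 4.34 in MZ (SD, n = 3 each, as for every mean below). Cr2, which encodes CD21, was at 141 ± 7.57, 107 ± 8.69 and 454 ± 52.7 FPKM. The 8 B cell identity markers summed to between 3500 and 4950 FPKM in every library. In such bulk samples, fewer cells that express a gene and less RNA per cell cannot be told apart.

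E proteins are basic helix-loop-helix (bHLH) transcription factors that bind DNA as dimers at short E-box motifs and drive B lineage gene expression from the earliest progenitors on. Id proteins have the helix-loop-helix dimerization surface but lack the basic DNA-binding region, so an E protein paired with an Id protein cannot bind the E-box. In mature B cells, Id3 is the best studied inhibitor, and the balance between E proteins and Id proteins is known to bear on the choice between the follicular and the marginal zone fate. These are regulators whose activity also depends on protein level and on which partner is bound, neither of which was measured here.

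Tcf3 was the most abundant of the 6 transcripts in every library, was highest in BDL, and did not pass the test between FO and MZ. The gene encodes the founding E protein, in alternative splice forms that the gene-level values do not separate. It lies on chr10:79872259-79896392 (minus strand) in the NCBIM37 build. Tcf3 was at 67.1, 66.0 and 62.5 FPKM in the FO replicates, at 84.2, 83.6 and 80.6 in the BDL replicates and at 58.7, 61.2 and 57.9 in the MZ replicates. All 3 BDL libraries were above every FO and MZ library, and all 3 MZ libraries were below every FO library.

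The means of Tcf3 were 65.2 ± 2.41 FPKM in FO, 82.8 ± 1.96 in BDL and 59.2 ± 1.72 in MZ. In the limma fit over all rows tested, the log2 difference of BDL minus FO was 0.34 (SE 0.0699, 95% interval 0.18 to 0.51, adjusted p = 0.0238), a 1.27-fold higher level. The same-date ratios of BDL to FO were 1.26, 1.27 and 1.29. BDL minus MZ was 0.48 (95% interval 0.32 to 0.64, adjusted p = 0.00146, limma), or 1.4-fold. MZ minus FO was -0.14 (95% interval -0.30 to 0.02), which missed the threshold at an adjusted p of 0.192. The BDL against FO call depended on the libraries used, while the log2 difference stayed between 0.31 and 0.37 with any single library left out. Scaling lowered this difference, to 0.27 with upper quartile scaling (adjusted p = 0.036, limma) and 0.28 with quantile normalization (adjusted p = 0.0407). Its adjusted p lay between 0.0714 and 0.0771 when any one FO library was left out, was 0.0708 without BDL replicate 1, and was 0.184, at a difference of 0.33, without the 3 libraries of the date of replicate 3.

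Tcf4 was the E protein gene that set MZ apart. It encodes the E protein best known for plasmacytoid dendritic cell identity, which is also expressed through the B lineage. Tcf4 was at 18.3, 19.4 and 20.3 FPKM in the FO replicates, at 20.9, 23.4 and 22.9 in BDL and at 35.8, 38.1 and 37.2 in MZ. Every MZ library was well above every FO and BDL library, and the BDL libraries lay just above the FO libraries without overlapping them.

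For Tcf4 the means were 19.3 ± 1.01, 22.4 ± 1.33 and 37.0 ± 1.17 FPKM in FO, BDL and MZ. MZ minus FO was 0.94 on the log2 scale (95% interval 0.76 to 1.11, adjusted p = 5.24e-05, limma), which is 1.91-fold and so just short of the 2-fold limit. The MZ to FO ratios of the 3 dates were 1.96, 1.97 and 1.83. BDL minus MZ was -0.72 (95% interval -0.90 to -0.55, adjusted p = 2.46e-04), with MZ 1.65-fold higher. BDL minus FO was 0.21 (95% interval 0.04 to 0.39) at an adjusted p of 0.132. With the title date as a block this last difference had an adjusted p of 0.0385.

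Tcf12, which encodes the remaining E protein and lies on chr9:71692059-71959626 (minus strand, NCBIM37), varied within subsets about as much as between them. It was at 21.8, 24.5 and 23.5 FPKM in FO, at 22.4, 30.5 and 23.3 in BDL and at 17.1, 22.3 and 18.7 in MZ. Replicate 2 was the highest library of each subset. FO and BDL overlapped, FO and MZ overlapped, and the MZ libraries were all below the BDL libraries, with 22.3 in the highest MZ library against 22.4 in the lowest BDL library. The means were 23.3 ± 1.41, 25.4 ± 4.44 and 19.4 ± 2.66 FPKM.

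None of the 3 Tcf12 differences passed the limma threshold without a block. BDL minus FO was 0.11 (95% interval -0.21 to 0.44, adjusted p = 0.645), MZ minus FO was -0.27 (-0.60 to 0.06, adjusted p = 0.209) and BDL minus MZ was 0.38 (0.06 to 0.71, adjusted p = 0.0792). With the title date as a block, the adjusted p was 0.0325 for MZ against FO and 0.00874 for BDL against MZ. Without MZ replicate 2, BDL against MZ had an adjusted p of 0.0394. A gene on the opposite strand, Rpl15-ps2, overlaps Tcf12 in the annotation and has no row of its own. The labels describe reads without strand and the methods a stranded kit. A 5S_rRNA gene on the same strand likewise overlaps Tcf4 and has no row. Overlap was taken on whole gene spans and not on exons, so whether reads from either gene were counted in the member was not tested.

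**Figure D1:**
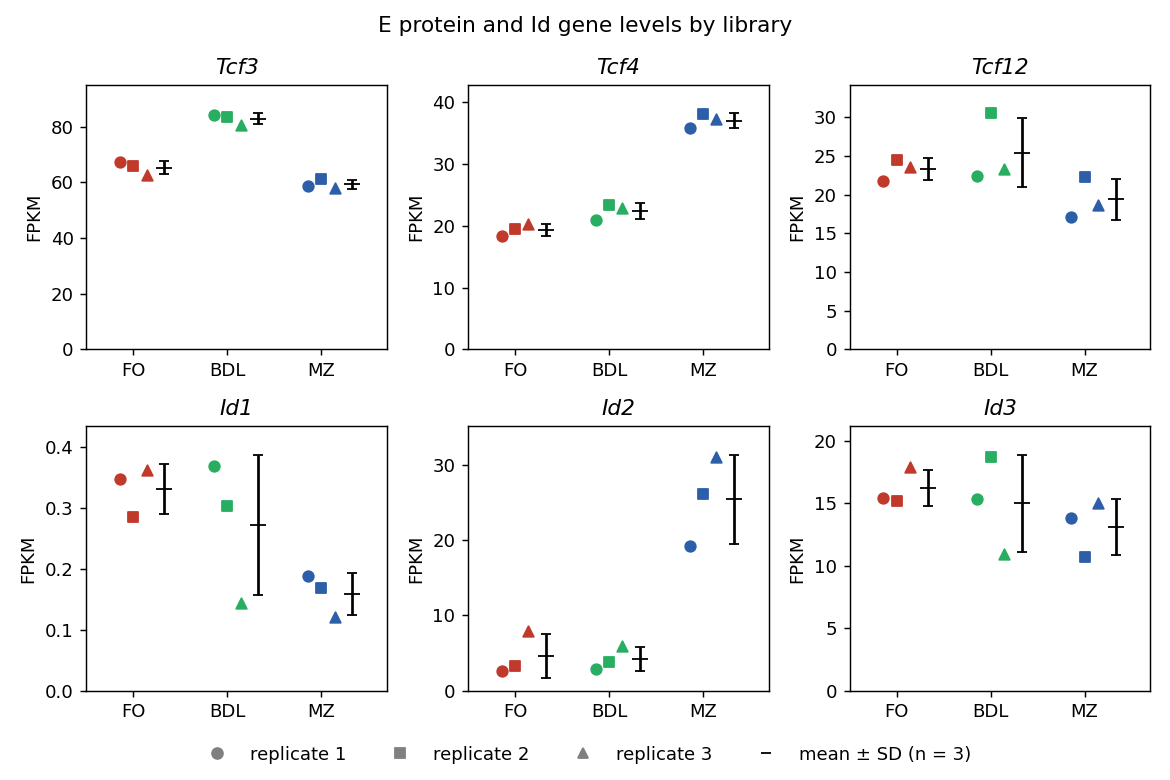
FPKM of the 6 genes in each of the 9 libraries, 1 panel a gene with its own axis from 0. Points are libraries, with colour for the subset and shape for the title date, and bars give the mean ± SD of 3 replicates. Id2 separates MZ (19.2 to 31.0 FPKM) from FO and BDL (2.61 to 7.89), Tcf4 separates MZ less widely, and Tcf3 is highest in BDL.

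Id2 was the member that differed most between subsets, and it was far higher in MZ than in FO or BDL. The protein it encodes is best known as the inhibitor on which innate lymphoid cells, natural killer (NK) cells and several dendritic cell types depend. The gene is on chr12:25778666-25780957 (minus strand, NCBIM37), with 1 annotated transcript of 3 exons. The 250 bases before its start are shown since Id2 is the member with the widest change and the window holds an E-box, the motif its E protein partners bind. They come from RefSeq on the GRCm38.p6 build, chr12:25096093-25096342 on the minus strand, and capitals mark the E-box.

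Id2 promoter: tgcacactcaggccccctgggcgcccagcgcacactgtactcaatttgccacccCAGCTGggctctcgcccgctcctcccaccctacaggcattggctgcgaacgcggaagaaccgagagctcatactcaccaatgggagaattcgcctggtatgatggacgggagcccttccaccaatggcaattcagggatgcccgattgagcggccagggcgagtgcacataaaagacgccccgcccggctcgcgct

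The E-box CAGCTG begins 196 bases before the start. It reads the same on both strands and is a special case of the general E-box CANNTG, which was also searched. The 6 letters CAGCTG were found in 13.0% of the 32841 mouse promoter windows of this length, and CANNTG in 66.2%. The form CACCTG, or CAGGTG on the other strand, was found in 17.2% of them and not in the Id2 window. Promoters were at hand for 4 of the 6 members, Tcf3, Tcf12, Id2 and Id3. The Tcf3 window held 1 CANNTG, the 3 Tcf12 windows held 1, 1 and 0, with a CAGCTG in the first, and the Id3 window held 0. Such matches are letters in a window and describe no binding.

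Id2 was at 2.61, 3.29 and 7.89 FPKM in the FO replicates, at 2.82, 3.75 and 5.93 in BDL and at 19.2, 26.1 and 31.0 in MZ. The lowest MZ library was above the highest FO or BDL library, while FO and BDL overlapped throughout. In each subset the highest of the 3 libraries was that of replicate 3. The means were 4.60 ± 2.87, 4.17 ± 1.60 and 25.4 ± 5.94 FPKM.

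On the log2 scale, Id2 in MZ minus FO was 2.58 (95% interval 1.61 to 3.55, adjusted p = 0.0025, limma), a 5.98-fold difference. The same-date ratios of MZ to FO were 7.33, 7.95 and 3.93. BDL minus MZ was -2.62 (95% interval -3.59 to -1.65, adjusted p = 0.00251), with MZ 6.14-fold higher, and the MZ to BDL ratios by date were 6.8, 6.96 and 5.22. BDL minus FO was -0.04 with a wide interval of -1.01 to 0.93 (adjusted p = 0.968). These libraries thus could not show a change of Id2 between BDL and FO, nor bound one to less than about the 2-fold limit.

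Transcripts of other cell types also differed between the dates, together with Id2. Of the 8 myeloid markers 5 were highest in replicate 3 of every subset, as were 6 of 8 NK and innate lymphoid markers, 5 of 10 T cell markers, 2 of 6 conventional dendritic cell markers, 1 of 6 plasmacytoid dendritic cell markers, 3 of 5 plasma cell markers, 0 of 8 erythroid and platelet markers and 0 of 8 B cell identity markers. Among further B lineage lists, 1 of 4 FO, 2 of 8 MZ and 2 of 7 transitional and immature B cell markers had that order too. Over all rows tested, 7.77% had it. That share is of rows at or above the minimum mean, while the marker counts include genes below it, so they are not like for like. The markers that were tested were 5 of the 8 myeloid, 4 of the 8 NK and innate lymphoid and 2 of the 10 T cell markers. They were also 2 of the 6 conventional and 2 of the 6 plasmacytoid dendritic cell markers. Of these tested markers, Itgam, Lyz2, S100a8, S100a9, Gzma, Klrd1, Nkg7 and Flt3 were highest in replicate 3 of every subset. Emr1, Prf1, Xcr1, Lair1 and Pacsin1 were not, nor were the tested T cell markers, Lck and Cd8b1. The T cell markers with that order were thus all below the minimum. S100a8, a neutrophil and monocyte gene, was at 0, 0 and 2.28 FPKM in FO, at 0.536, 0 and 2.0 in BDL and at 0, 0.186 and 2.82 in MZ. Gzma, a granzyme of NK and T cells, lay between 0.467 and 1.31 FPKM in replicates 1 and 2 and between 2.59 and 3.55 in replicate 3. Ncr1, an NK cell receptor gene, lay between 0.0253 and 0.177 FPKM in replicates 1 and 2 and between 0.339 and 0.442 in replicate 3.

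The summed markers also differed in part between subsets. The myeloid list summed to 2.69 to 9.50 FPKM in FO, 6.27 to 12.6 in BDL and 3.67 to 11.6 in MZ. Of it, Emr1 made up 0.64 to 0.887, 3.13 to 3.88 and 0.536 to 0.765 FPKM, while Lyz2, S100a8 and S100a9 overlapped between all subsets. Itgam was lower in FO, at 0.659 to 0.881, than in BDL (1.25 to 1.82) and MZ (1.67 to 2.02). The NK and innate lymphoid list summed to 2.95 to 8.22, 3.66 to 7.53 and 7.52 to 13.3 FPKM, and in MZ most of that sum was Prf1, at 5.39 to 8.85 FPKM. The T cell list summed to 10.5 to 12.4, 19.9 to 25.2 and 8.33 to 14.7 FPKM, of which Lck, a Src family kinase gene, made up 8.52 to 9.67, 17.7 to 21.9 and 6.7 to 11. Of the T cell receptor complex genes, Cd3d was at most 0.797, Cd3g at most 0.607 and Cd3e at most 0.406 FPKM in any library. Cd3d and Cd3g were highest in replicate 3 of every subset, and Cd3e was not. Cd8b1 was at most 1.14 FPKM. The conventional dendritic cell list summed to 2.11 to 2.51, 1.41 to 2.18 and 2.27 to 3.07. The plasmacytoid dendritic cell list, which bears on Tcf4 as well, summed to 6.92 to 8.46, 6.61 to 7.82 and 12.2 to 14.4 FPKM. In MZ a large part of that sum was Lair1, at 5.5 to 7.97 FPKM against 0.237 to 0.325 in the other subsets. Siglech, a defining marker, was at 0.0499 to 0.191 FPKM in FO, 0.199 to 0.456 in BDL and 0.3 to 0.491 in MZ. Its MZ libraries were thus above all FO libraries and overlapped those of BDL, and it was highest in replicate 3 of every subset. Plasma cell markers summed to 186 to 223, 128 to 207 and 224 to 296 FPKM, most of it Irf4, at 165 to 202, 101 to 180 and 200 to 270. Other plasma cell markers had other orders, with Sdc1 highest in BDL (1.22 to 1.67 FPKM in FO, 6.86 to 9.58 in BDL and 0.114 to 0.289 in MZ) and Prdm1 highest in MZ (0.376 to 0.814, 0.725 to 1.18 and 3.5 to 5.41). Erythroid and platelet markers summed to 1.89 to 4.18, 7.0 to 8.04 and 3.07 to 5.5. The part of these transcripts in the Id2 and Tcf4 levels was not tested. Without the 3 libraries of the date of replicate 3, Id2 in MZ minus FO was 2.89 (adjusted p = 0.00369, limma) and BDL minus MZ was -2.74 (adjusted p = 0.00482).

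**Figure D2:**
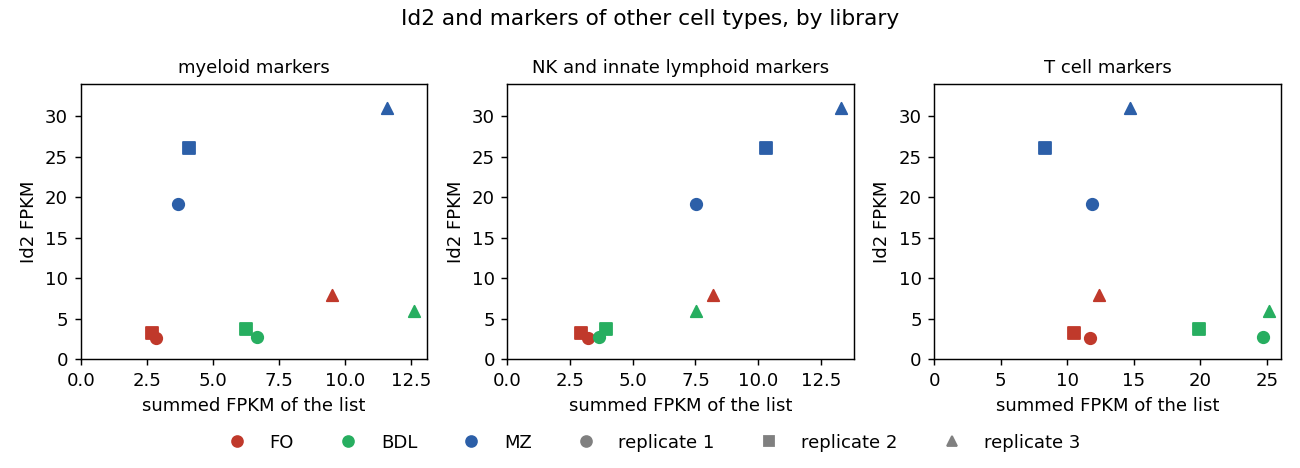
Id2 FPKM (vertical) against the summed FPKM of 3 marker lists of other cell types (horizontal), 1 point a library, with colour for the subset and shape for the title date. The triangles of replicate 3 lie highest for Id2 in each subset and farthest right for the myeloid and NK lists, and the 3 MZ points lie between 19.2 and 31.0 FPKM of Id2, with NK sums of 7.52 to 13.3 as compared to at most 8.22 in FO and 7.53 in BDL.

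Id3, which encodes the inhibitor induced by antigen receptor signalling in lymphocytes, was the most abundant Id transcript in FO and BDL and was not called different between any subsets. It lies on chr4:135699412-135701670 (plus strand, NCBIM37). Id3 was at 15.4, 15.2 and 17.9 FPKM in FO, at 15.3, 18.7 and 10.9 in BDL and at 13.8, 10.7 and 15.0 in MZ. BDL held both the highest and nearly the lowest library and overlapped both other subsets, and the MZ libraries lay just below those of FO. The same-date ratios of BDL to FO were 0.994, 1.23 and 0.612, so the dates did not give 1 direction.

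The Id3 means were 16.2 ± 1.46, 15.0 ± 3.89 and 13.1 ± 2.22 FPKM. BDL minus FO was -0.14 (95% interval -0.60 to 0.32, adjusted p = 0.693), MZ minus FO was -0.31 (-0.77 to 0.15, adjusted p = 0.312) and BDL minus MZ was 0.17 (-0.29 to 0.63, adjusted p = 0.578), all by limma. The MZ against FO interval leaves room for a decrease but not for one of 2-fold.

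Id1 was the least abundant member, though above 0 in every library. The gene is on chr2:152561987-152563146 (plus strand, NCBIM37) and its product is best known as a target of bone morphogenetic protein (BMP) signalling. Id1 was at 0.347, 0.284 and 0.361 FPKM in FO, at 0.369, 0.303 and 0.144 in BDL and at 0.188, 0.168 and 0.121 in MZ. Read against the estimated depth, these values stand for only about 24, 20 and 24 fragments in FO, 24, 26 and 11 in BDL and 12, 11 and 9 in MZ. The MZ libraries were below the FO libraries, and BDL overlapped both other subsets. The means were 0.331 ± 0.0412, 0.272 ± 0.115 and 0.159 ± 0.0343 FPKM. With no minimum on expression, MZ minus FO was -0.74 (95% interval -1.30 to -0.18, adjusted p = 0.0702, limma), BDL minus FO was -0.26 (adjusted p = 0.598) and BDL minus MZ was 0.48 (adjusted p = 0.222). The fourth family gene, Id4, was listed at 0 in all 9 libraries.

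The members' counts can be read against the share of all tested rows. At an adjusted p under 0.05 and a change of at least 2-fold, 0 of the 5 tested members were called between BDL and FO, where 1.91% of all rows were called. By the same rule 1 of 5, Id2, was called between MZ and FO, where 8.92% of all rows were called, and 1 of 5, again Id2, between BDL and MZ, where 7.8% were called. With the adjusted p alone, the counts were 1 of 5 (Tcf3) beside 7.73% of all rows for BDL against FO, 2 of 5 (Tcf4 and Id2) beside 27.1% for MZ against FO, and 3 of 5 (Tcf3, Tcf4 and Id2) beside 28.1% for BDL against MZ. At an unadjusted p under 0.05 they were 2, 2 and 4 of 5, beside 24.3%, 37.8% and 39.9% of all rows in the same order of comparisons.

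Subsets did not overlap in any library for 2 of 5 members between BDL and FO, for 4 of 5 between MZ and FO and for 4 of 5 between BDL and MZ. The same held for 34.8%, 46.1% and 38.9% of all rows tested. The smallest two-sided p that an exact permutation test of 3 against 3 libraries can give is 0.1, which is what each of these members gave. The 3 comparisons share libraries, so their counts are not independent of each other.

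**Figure D3:**
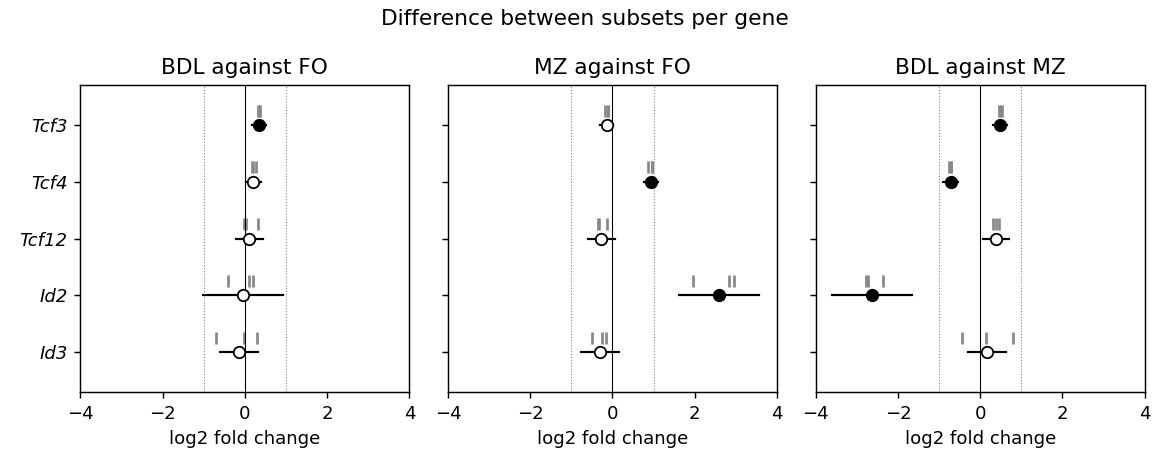
Log2 fold change of the 5 tested genes in the 3 comparisons, with 95% intervals from limma. Id2 lies at 2.58 in MZ against FO and at -2.62 in BDL against MZ, Tcf4 at 0.94 and -0.72, and Tcf3 is the member above 0 in BDL against both other subsets with intervals clear of 0.

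FPKM is scaled to transcript length, so levels of the genes can be ordered within a library. In FO the order was Tcf3, Tcf12, Tcf4, Id3, Id2 and Id1, and no neighbours in it overlapped. BDL had the same order, with overlap of Tcf12 and Tcf4. In MZ the order was Tcf3, Tcf4, Id2, Tcf12, Id3 and Id1, where Id2 and Tcf12 overlapped. Id2 thus stood below every E protein gene in FO and BDL, and above Tcf12 by its mean in MZ.

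Summed over its 3 genes, E protein expression was 107, 110 and 106 FPKM in FO, 128, 138 and 127 in BDL and 112, 122 and 114 in MZ. Summed Id expression was 18.4, 18.8 and 26.1 FPKM in FO, 18.5, 22.7 and 17.0 in BDL and 33.1, 37.0 and 46.1 in MZ. The E protein sums were highest in BDL and lowest in FO with no overlap, and the Id sums were highest in MZ and overlapped between FO and BDL. The ratio of the sums was 5.82, 5.84 and 4.07 in FO (5.24 ± 1.02), 6.88, 6.05 and 7.45 in BDL (6.79 ± 0.704) and 3.37, 3.29 and 2.47 in MZ (3.04 ± 0.498). No library of one subset reached into the range of another, with BDL highest, FO in between and MZ lowest. BDL and FO were close, with 6.05 in the lowest BDL library against 5.84 in the highest FO library. Of all rows tested, 34.8% did not overlap between BDL and FO, 46.1% between MZ and FO and 38.9% between BDL and MZ. The ratio is a sum over transcripts chosen by name and was given no test, and protein levels may differ from it.

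The make-up of both sums differed in MZ. Tcf4 was 17.1, 17.6 and 19.1% of the E protein sum in FO, 16.4, 17.0 and 18.1% in BDL and 32.1, 31.4 and 32.7% in MZ. The ratio of Tcf3 to Tcf4 was 3.67, 3.41 and 3.08 in FO, 4.03, 3.58 and 3.52 in BDL and 1.64, 1.60 and 1.55 in MZ. Id2 was 14.2, 17.5 and 30.2% of the Id sum in FO, 15.2, 16.5 and 34.9% in BDL and 57.8, 70.7 and 67.3% in MZ. Id3 was therefore the leading Id transcript of every FO and BDL library and Id2 of every MZ library.

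**Figure D4:**
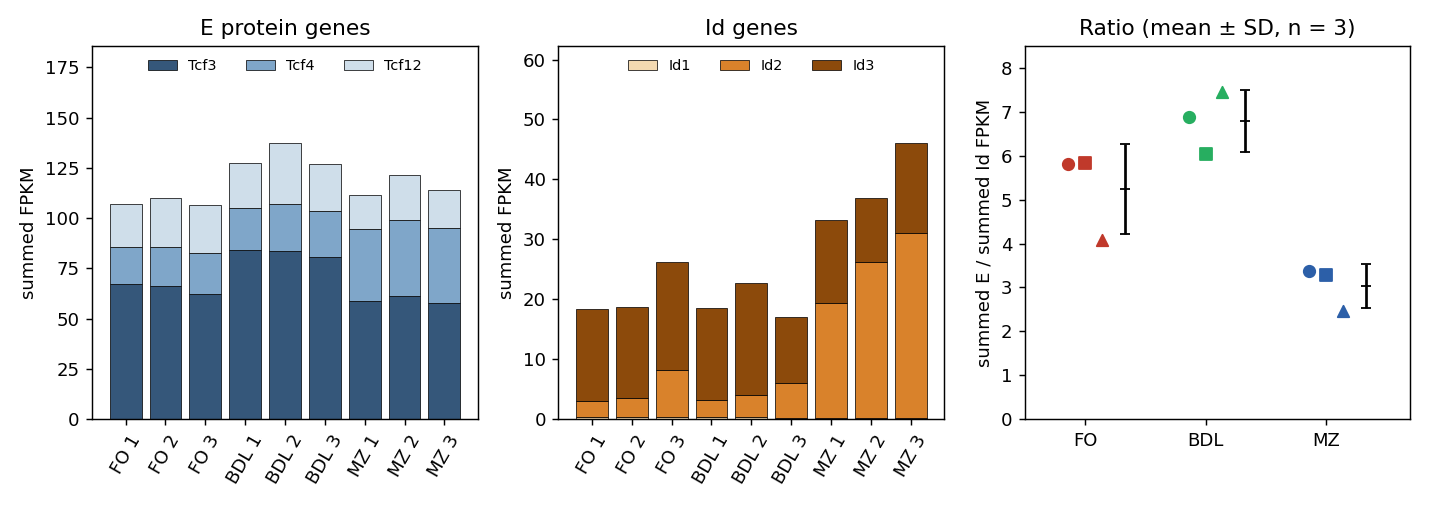
Stacked bars give the summed FPKM of the E protein genes (left) and Id genes (middle) in each library, split by gene, and points give the ratio of the 2 sums per library with the mean ± SD of 3 replicates (right). The ratio runs from 6.05 to 7.45 in BDL, from 4.07 to 5.84 in FO and from 2.47 to 3.37 in MZ.

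Among all tested rows, the genes most like each member over the 9 libraries were found by Pearson correlation of log2 values. The 9 points share 3 subsets and 3 dates, so these values are descriptions. Tcf3 was followed most closely by Heatr2 (0.993), Tubb2b (0.991) and Cbx1 (0.985), all highest in BDL. Tubb2b, a beta-tubulin gene, was at a mean of 4.13 FPKM in FO, 9.27 in BDL and 3.15 in MZ. Tcf4 was followed by Ackr3 (0.996), Nebl (0.996) and Inpp5f (0.994). Ackr3, an atypical chemokine receptor gene, was at 0.566, 1.98 and 64.0 FPKM, a far wider span than that of Tcf4.

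Tcf12 was most like Pum2 (0.995), Aqr (0.993) and Zfp407 (0.99), and Id2 most like Pim1 (0.983), Ddx3x (0.983) and Ccnf (0.982). Pim1, which encodes a serine/threonine kinase that promotes survival, was at 87.7 FPKM in FO, 82.9 in BDL and 285 in MZ. For Id3 the closest rows, Hist1h1e (0.887), Crbn (0.877) and Rps27rt (0.831), were less close than those of any other member. Between members, Id2 ran with Tcf4 (0.936) and against Tcf3 (-0.718), and Tcf3 and Tcf4 ran apart (-0.55).

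Genes around the E protein and Id pair were described in 4 lists. The first held 24 other bHLH genes, of which 7 were expressed enough to be tested. Between MZ and FO 4 of the 7 were called higher and 0 lower, where 8.92% of all rows were called (642 higher and 393 lower). With the adjusted p alone, 5 were higher and 0 lower, beside 27.1% of all rows. The median log2 change was 1.0 against -0.01 over all rows. They were the Notch-responsive repressor genes Hes5 (log2 change 2.43, adjusted p = 4.73e-05, limma) and Hes1 (1.22, adjusted p = 0.0122) and the repressor genes Bhlhe40 (1.37, adjusted p = 0.00149) and Bhlhe41 (1.0, adjusted p = 0.00055). Hes1 left the 2-fold limit without MZ replicate 2, with an adjusted p of at most 0.0459 in any alternative, and Bhlhe41, which lies at the 2-fold limit, without FO replicate 1, FO replicate 2 or MZ replicate 1, with 1 FPKM added or with quantile normalization.

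Between BDL and FO 3 of the 7 bHLH relatives were higher and 0 lower with the adjusted p alone, beside 7.73% of all rows (median 0.69 against 0.05). At 2-fold, 1 was higher and 0 lower, beside 1.91%. It was Bhlhe41, at 1.80 ± 0.321 FPKM in FO, 5.95 ± 0.388 in BDL and 3.68 ± 0.147 in MZ (log2 change 1.68, adjusted p = 3.26e-04). Between BDL and MZ 2 were higher and 3 lower with the adjusted p alone, beside 28.1% of all rows (median 0.15 against 0.06). At 2-fold, 1 was higher and 2 were lower, beside 7.8%. Both lower genes were Hes factors, with log2 changes of -1.97 for Hes1 (adjusted p = 0.00121) and -1.48 for Hes5 (adjusted p = 8.62e-04) in BDL as compared to MZ. Bhlha15, a factor of secretory cells, was higher in BDL by 1.24 (adjusted p = 0.0224), a call that was lost without BDL replicate 1, BDL replicate 3 or MZ replicate 2 and had an adjusted p of 0.131 without the date of replicate 3.

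Of 17 cofactors of E and Id proteins, 14 were tested. None were called between BDL and FO (median -0.05), beside 1.91% of all rows. Lmo2 (-0.57, adjusted p = 0.00542) and Lmo4 (0.76, adjusted p = 0.00674) there passed the adjusted p but not the 2-fold limit, beside 7.73% of all rows. Between MZ and FO 0 were higher and 2 lower, beside 8.92% of all rows, with a median of -0.23. The adjusted p alone gave 1 higher and 5 lower, beside 27.1%. Lmo2 encodes an adaptor that joins E protein and GATA complexes, and it was at 151 ± 9.53 FPKM in FO, 101 ± 4.03 in BDL and 37.5 ± 0.727 in MZ. Its log2 change in MZ against FO was -2.0 (adjusted p = 1.34e-06). Ssbp2, whose product binds the Lmo2 partner LDB1, was at 1.24 ± 0.0727, 1.30 ± 0.105 and 0.141 ± 0.0437 FPKM (log2 change -2.49, adjusted p = 3.09e-05). The same 2 genes were those higher in BDL than in MZ, where 0 were lower, beside 7.8% of all rows, and the median was 0.22. With the adjusted p alone, 4 were higher and 1 lower, beside 28.1%. Lmo2 was higher by 1.43 (adjusted p = 9.57e-06) and Ssbp2 by 2.55 (adjusted p = 3.4e-05).

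The third list held 21 genes chosen around BMP, TGF-beta and Egr signalling, inputs known to induce Id genes, and 14 were tested. It was not limited to such inputs, as Smad7, Zfp36l1 and Zfp36l2 were also on it. Between BDL and FO 0 were called (median 0.01), beside 1.91% of all rows, and 1 was higher with the adjusted p alone, beside 7.73%. Between MZ and FO 2 were higher and 3 lower (median -0.11), beside 8.92%. The adjusted p alone gave 5 higher and 4 lower, beside 27.1%. Egr2, an immediate early zinc finger gene of antigen receptor signalling, was at 4.85 ± 0.366 FPKM in FO, 8.04 ± 0.249 in BDL and 27.4 ± 3.68 in MZ (log2 change 2.47, adjusted p = 2.25e-06). Smad3, the TGF-beta signal transducer, was at 7.04 ± 0.486, 8.37 ± 0.862 and 23.1 ± 4.12 FPKM (log2 change 1.68, adjusted p = 4.89e-05).

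The 3 genes lower in MZ than in FO were Smad1, a BMP transducer, Smad7, an inhibitory Smad, and Zfp36l2, which encodes an mRNA decay factor. Smad1 was at 1.99 ± 0.17, 1.91 ± 0.193 and 0.537 ± 0.0697 FPKM (log2 change -1.72, adjusted p = 4.71e-05). Smad7 was changed by -1.03 (adjusted p = 0.00534) and left the 2-fold limit without FO replicate 3, MZ replicate 1 or the date of replicate 3. Zfp36l2 was changed by -1.16 (adjusted p = 0.00352, and 0.0602 without the date of replicate 3). Between BDL and MZ 2 of the list were higher and 2 lower (median 0.11), beside 7.8% of all rows. The adjusted p alone gave 5 higher and 4 lower, beside 28.1%. Smad1 (1.66, adjusted p = 6.82e-05) and Zfp36l2 (1.04, adjusted p = 0.00639, and 0.071 without the date of replicate 3) were higher in BDL, and Egr2 (-1.75, adjusted p = 1.69e-05) and Smad3 (-1.44, adjusted p = 1.35e-04) were lower. Zfp36l2 also lost this call without BDL replicate 2 or MZ replicate 1 and under upper quartile scaling or quantile normalization.

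Of 24 known E protein target genes of the B lineage, 17 were tested. By either rule 1 was higher and 0 lower in BDL against FO (median 0.14), beside 1.91% of all rows at 2-fold and 7.73% without. It was Gfi1, a zinc finger repressor gene, at 1.51 ± 0.496 FPKM in FO, 9.04 ± 5.48 in BDL and 1.68 ± 0.982 in MZ (log2 change 2.36, adjusted p = 0.0344). This call was lost when FO replicate 1, 2 or 3, BDL replicate 1 or 3, or MZ replicate 1 was left out or the FO and BDL libraries were fitted alone, and the adjusted p was 0.134 without the date of replicate 3. Between MZ and FO 0 were higher and 3 lower at 2-fold (median -0.04), beside 8.92% of all rows, namely Vpreb3, a pre-B cell receptor associated gene (-2.27, adjusted p = 1.44e-05), Bcl6, the germinal centre repressor (-2.09, adjusted p = 8.45e-06), and the chemokine receptor gene Cxcr4 (-1.60, adjusted p = 0.00101). Bcl6 was at 32.5 ± 3.08 FPKM in FO, 26.4 ± 0.981 in BDL and 7.61 ± 1.16 in MZ. With the adjusted p alone 2 were higher and 5 lower, beside 27.1% of all rows. The 2 higher in MZ were genes of B cell receptor signalling, the kinase gene Blk (0.95, adjusted p = 3.79e-04) and the adaptor gene Blnk (0.75, adjusted p = 5.88e-04).

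Between BDL and MZ 5 of the 17 targets were higher in BDL and 0 lower at 2-fold, beside 7.8% of all rows, with a median of 0.52 against 0.06 over all rows. With the adjusted p alone 8 were higher and 3 lower, beside 28.1% of all rows, and the 3 lower in BDL were Blnk (-0.97, adjusted p = 1.53e-04), Blk (-0.71, adjusted p = 0.00215) and Irf4 (-0.78, adjusted p = 0.028), a factor gene of activated B cells and plasma cells. The 5 at 2-fold were Vpreb3 (2.55, adjusted p = 1.03e-05), Gfi1 (2.31, adjusted p = 0.0134), Bcl6 (1.79, adjusted p = 2.37e-05), Cxcr4 (1.27, adjusted p = 0.00375) and Mef2c (1.14, adjusted p = 0.00211), a MADS-box factor gene of the B lineage. Mef2c left the 2-fold limit without BDL replicate 2 or under quantile normalization and had an adjusted p of 0.0562 without the date of replicate 3. The median of all rows was 0.05 in BDL against FO and -0.01 in MZ against FO, the values beside which the other medians stand. Markers of transitional and immature B cells, among which Vpreb3 is also counted, summed to 309 to 371 FPKM in FO, 481 to 711 in BDL and 365 to 465 in MZ. Most of that sum was Cd24a, at 209 to 251, 332 to 534 and 341 to 439 FPKM. Vpreb3, Cd93 and Spn were lower in every MZ library than in any FO library, with Vpreb3 at 92.2 to 112 in FO and 18.6 to 23.4 in MZ. Myb overlapped between FO and MZ. The part of these markers in the target list was not tested.

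The list counts were also taken without the date of replicate 3. Over all 11597 rows, 78 genes were then called in BDL against FO, 973 in MZ against FO and 837 in BDL against MZ. For the targets, 0 were then called in BDL against FO, 3 lower in MZ than in FO and 4 higher in BDL than in MZ. For the bHLH relatives, 1 was higher in BDL than in FO, 4 were higher in MZ than in FO and 2 were lower in BDL than in MZ. The cofactor counts stayed at 0, 2 and 2. In the third list, MZ against FO then had 2 called upward and 1 downward, and BDL against MZ had 1 called upward and 2 downward.

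**Figure D5:**
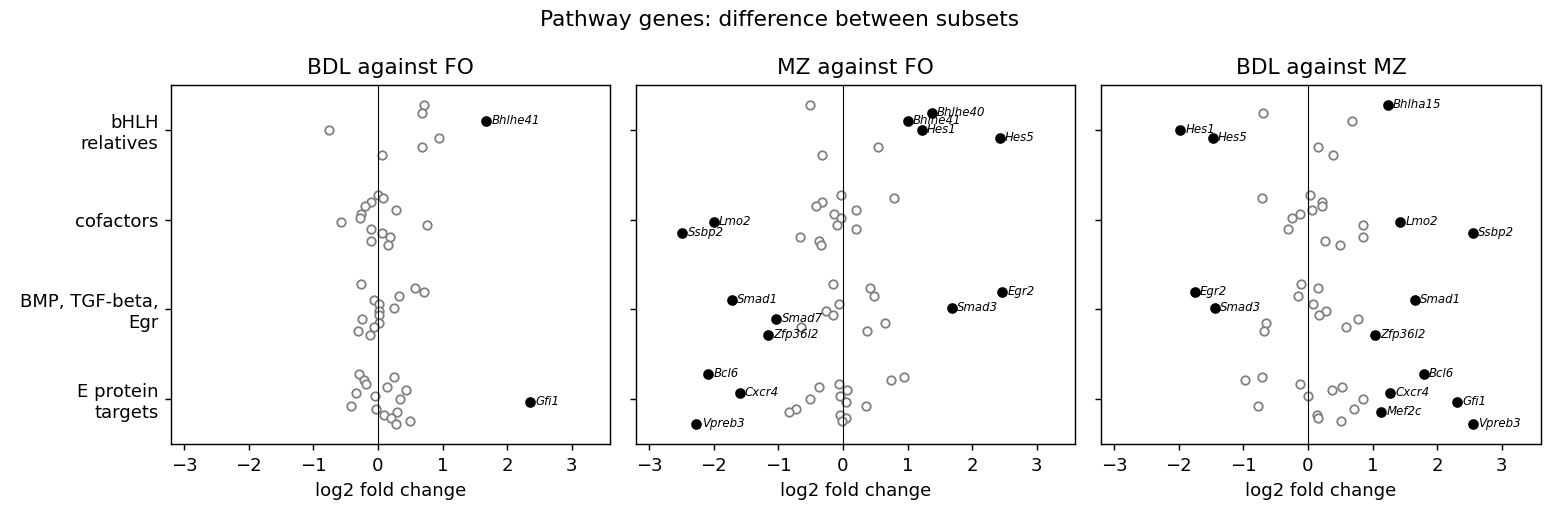
Log2 fold change of the tested genes of the 4 lists in the 3 comparisons, 1 point a gene. Filled and named points were called at an adjusted p under 0.05 and at least 2-fold, and open points were not. In MZ against FO the 4 called bHLH relatives lie above 0, and the 2 called cofactors and 3 called E protein targets lie below 0, while open points of each list lie on both sides.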

How the data were processed

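Total splenic B cells were enriched by negative magnetic selection and sorted by flow cytometry, and mRNA libraries were sequenced. The authors aligned reads with TopHat2 2.1.0 to mm9 and deposited gene-level FPKM values from Cufflinks, whose version and annotation are not given in the sources used here. Cuffdiff comparisons by the authors were not used.

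FPKM are not counts, so log2(FPKM + 0.1) was tested with limma 3.58.1 (R 4.3.3) on 11597 rows averaging 0.5 FPKM or more, in 1 fit of all 9 libraries with a term for the subset and no other, and p-values were adjusted over all rows by Benjamini-Hochberg. A constant of 0.1 understates changes of low genes. A gene was called when it passed 0.05 after adjustment and changed at least 2-fold, or, by a second rule, when it passed 0.05 alone. No count test was run, since FPKM steps depend on transcript length. Among genes with 1 transcript of at least 3000 bases, 69.8 to 78.3% of low values lay within 0.1 fragment of a whole step. The step of each library was chosen to make this share highest. Chance gives 20% at a fixed step, which is not the chance level of the best step. Smaller steps fit too, so the search was kept to a 2-fold range. These steps gave the relative depth and the approximate fragment numbers of Id1, whose absolute scale rests on that range. By them, 1 fragment on 1 kb was worth 0.0136 to 0.0185 FPKM. Single values were compared with two-sided exact permutation tests.

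The members and lists were chosen with earlier results of these data known. Genes named are the 6 members, the 3 rows most like each tested member, up to 5 called genes of each list with the largest change in a comparison, and Fcer2a and Cr2. Lmo2 and Lmo4 in BDL against FO, Blk, Blnk and Irf4, and the marker genes of single cell types, were named after their values were seen. The values of 1 marker gene are not reported here. On simulated data for BDL against FO, 87% of 200 genes changed by 1.5 (log2) among 11597 rows were called, with 2 calls among the unchanged, and 0 with none changed. Same-numbered samples share a number in date form in their titles, which was taken as a shared date that pairs the libraries. Correlations of same-date deviations were 0.147, 0.049 and -0.062 for BDL and FO, 0.024, 0.014 and 0.008 for MZ and FO, and 0.1, 0.244 and 0.182 for BDL and MZ. Coordinates are from GENCODE M1 (NCBIM37), and promoters from RefSeq (GRCm38.p6). Figures were drawn with matplotlib 3.10.9 in Python 3.11.15. Alternatives were another constant, minimum, scaling, fit, block and left-out libraries.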

Additional observations from a re-analysis of the deposited data

How the results depend on the processing

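The differences of Id2 and Tcf4 between MZ and the other subsets kept their direction and an adjusted p under 0.05 in all 19 alternatives tried. Over these, Id2 ranged from 2.27 to 3.05 in MZ against FO (adjusted p 1.71e-04 to 0.0154) and from -2.9 to -2.37 in BDL against MZ (1.81e-04 to 0.0134), and Tcf4 from 0.90 to 1.0 (2.61e-05 to 0.00739) and from -0.85 to -0.68 (7.02e-05 to 0.0165). Tcf3 in BDL against MZ ranged from 0.33 to 0.51 (adjusted p 5.96e-04 to 0.0327), and in BDL against FO its adjusted p ranged from 0.0112 to 0.184, with 14 of 19 under 0.05. The following values moved, and the cause was not tested. With 1 FPKM added in place of 0.1, the genes called fell from 221 to 94 in BDL against FO and from 1035 to 674 in MZ against FO. With the title date as a replicate block, the adjusted p alone called 2378 genes in place of 896 in BDL against FO, with 2 members in place of 1, and 4952 in place of 3255 in BDL against MZ. Among the list genes, 1 FPKM added also ended the 2-fold calls of Smad7, Smad1 and Ssbp2 in MZ against FO and of Smad1 and Bhlha15 in BDL against MZ, a fit of 6 libraries alone those of Gfi1 in BDL against FO and Bhlha15 in BDL against MZ, and no minimum that of Gfi1 in BDL against FO. The block moved Tcf4 in BDL against FO and Tcf12 in both MZ comparisons under 0.05 and changed no other member's call. Over all alternatives the adjusted p ran from 0.0385 to 0.36 for that Tcf4 difference, and for Tcf12 from 0.0325 to 0.524 in MZ against FO and from 0.00874 to 0.28 in BDL against MZ. Without the 3 libraries of the date of replicate 3, an alternative chosen after seeing the data, 78 genes were called in BDL against FO. The adjusted p alone then called 80, 1648 and 1406 genes in BDL against FO, MZ against FO (3141 with all libraries) and BDL against MZ, with 0 members in the first. When single libraries were left out, the adjusted p alone called 335 to 1111 genes and 0 to 1 members in BDL against FO. Differences near 0 changed sign: in BDL against FO, without single libraries, Tcf12 ran from -0.02 to 0.2, Id2 from -0.35 to 0.43 and Id3 from -0.32 to 0.07, and in BDL against MZ Id3 ran from -0.01 to 0.38. Without the date of replicate 3, Id2 was 0.15 and Id3 0.14 in BDL against FO, and Id3 was 0.48 in BDL against MZ. The mean log2 ratio of summed E protein to Id expression was 2.37 in FO, 2.76 in BDL and 1.59 in MZ. Without Tcf3 and Id3 the means were 3.26, 3.47 and 1.17 in the same order of subsets, and FO and BDL libraries then overlapped. With 3 libraries a subset, depth limits Id1 most, at about 9 to 26 fragments a library.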
